A study of Mus musculus with 90 samples.

Results

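Livers of mice without hepatocyte glucocorticoid receptor (GR), named GR LKO, were compared between zeitgeber time (ZT) 16 and ZT12 on the control diet, a step of 4 hours that spans lights-off and the start of the nightly meal. The members were chosen by sample title: 3 GR LKO libraries at ZT16 and 4 at ZT12 from the control-diet table, 7 of the 90 samples of the series. The series holds livers with and without hepatocyte GR, taken over the day on 2 diets, and further WT livers at ZT12 that include a corticosterone group. Polyadenylated liver RNA of WT and GR LKO male mice was sequenced at 6 time points on either diet, giving 42 libraries on the control diet and 36 on caloric restriction. All groups used here are C57BL/6J mice on chow that entered the feeding protocol at 12 weeks of age. GR LKO mice have the genotype GRfl/fl x Alb-Cre, and WT mice are GRfl/fl, so both carry the loxP-flanked *Nr3c1* alleles and Cre is present in GR LKO only. The albumin promoter drives Cre in hepatocytes, so whole-liver RNA still holds *Nr3c1* transcripts of the other liver cells. On both diets food came at ZT12, as a smaller ration under caloric restriction and as chow for the whole dark phase on the control diet (Night Restricted Feeding, NRF). This limit to the dark covered the last week only, and control-diet mice ate freely before it. Time of day, darkness and feeding change together between ZT12 and ZT16, so their parts in any difference cannot be told apart. The groups beside the 7 livers were WT on the control diet at ZT12 and ZT16 (4 libraries each), GR LKO on caloric restriction at ZT12 and ZT16 (3 each), and GR LKO on the control diet at ZT8 (4) and ZT20 (3).

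GR is the nuclear receptor for glucocorticoids, whose secretion in mice peaks near lights-off. The liver clock is a transcriptional loop in which BMAL1 and CLOCK activate the *Per*, *Cry*, *Nr1d1* and *Dbp* genes through E-boxes, while PER and CRY proteins inhibit them and REV-ERB proteins repress *Arntl*, the gene of BMAL1. Feeding after a fast raises insulin, which lowers gluconeogenic transcripts and raises lipogenic ones, and it raises secretory protein synthesis and body temperature, to which the chaperone genes of the endoplasmic reticulum (ER) and the cytosol respond.

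*Nr3c1* (ENSMUSG00000024431), the deleted gene, read 18.8, 20.8, 20.3 and 25.1 CPM at ZT12 and 23.0, 26.3 and 29.0 CPM at ZT16 (counts scaled by library size and TMM within the control-diet table). The groups overlapped, and the difference was not called (log2 0.30 ± 0.12, adjusted p 0.188, where log2 is the log2 fold change of ZT16 over ZT12 with its standard error). The p values come from the quasi-likelihood test of edgeR, adjusted by Benjamini-Hochberg. The 8 WT libraries at the same times read 75.6 to 118 CPM, above all 7 GR LKO libraries. Total counts were 15265870, 16066590, 12974408 and 14879184 at ZT12 and 14595267, 13407893 and 13029116 at ZT16. The 10 most abundant genes held 18.1% to 18.3% of the counts at ZT12 and 18.4% to 20.1% at ZT16, and genes of the mitochondrial genome held 8.64% to 9.63% and 9.08% to 9.83%. The first principal component of log2 CPM carried 30.3% of the variance and placed the 4 ZT12 libraries at -34.4, -9.66, -26.8 and -21.4 and the 3 ZT16 libraries at 16.1, 33.6 and 42.5. The times separated on it without overlap, with ZT12 replicate 2 and ZT16 replicate 1 nearest each other.

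Of 11753 genes tested, 1065 (9.06%) were called at an adjusted p under 0.05, 503 higher at ZT16 (4.28%) and 562 lower (4.78%). At an unadjusted p under 0.05 there were 2820, and DESeq2 called 1397, of which 1048 were among the 1065. The median log2 fold change of all genes tested was 0.01. Among called genes the median rise was 0.72 and the median fall -0.55 on the log2 scale, and 142 rose and 77 fell by a log2 change of at least 1. The count rests in part on single libraries: it was 574 without ZT12 replicate 1, 468 without ZT16 replicate 1, 512 without ZT16 replicate 2 and 379 without ZT16 replicate 3, and 737 to 980 without 1 of the other 3. In all 7 fits that leave out 1 library, 296 of the genes were called, 153 higher and 143 lower at ZT16. The groups did not overlap for 2732 genes (23.2%), beside the 9.06% called. The gene with the lowest p was *Angptl8*, chosen here after its values were seen, which encodes an insulin-induced inhibitor of lipoprotein lipase. It read 48.7, 47.7, 45.6 and 44.7 CPM at ZT12 and 159, 159 and 198 CPM at ZT16 (log2 1.89 ± 0.09, adjusted p 0.000329). All 3 ZT16 libraries lay far above the 4 ZT12 libraries, with no overlap.

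**Figure D1:**
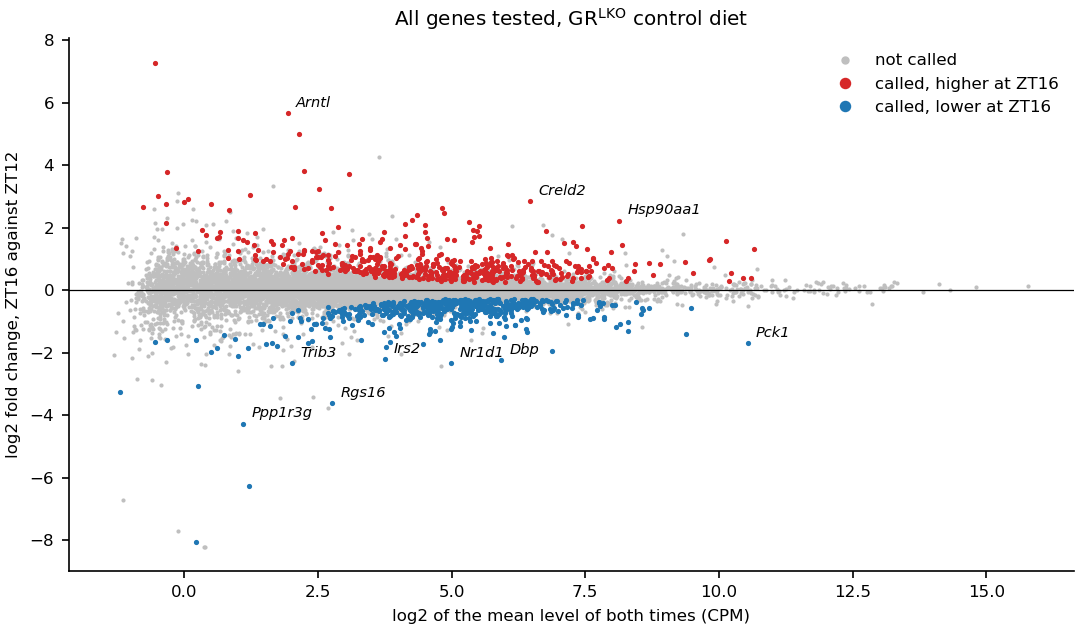
Each point is 1 of the 11753 genes tested, with the mean level (log2 CPM) across and the log2 fold change from ZT12 to ZT16 up; genes called higher (503) and lower (562) at ZT16 are coloured. Called genes lie on both sides of 0.

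In the core clock list, 3 of 14 tested members rose and 5 fell, with a median log2 fold change of -0.05 beside 0.01 over all genes tested. The fallen members numbered 3 without ZT16 replicate 1 or 3. *Arntl* (ENSMUSG00000055116), which encodes BMAL1, read 0, 0, 0.635 and 0 CPM at ZT12 and 9.38, 5.36 and 7.81 CPM at ZT16. It was at 0 counts in 3 of the 4 ZT12 libraries and present in all 3 ZT16 libraries, so the fold (log2 5.67 ± 0.89, adjusted p 0.00973) rests on a near-empty group and its size is uncertain. *Clock*, the partner of BMAL1, also read 0 in 3 of 4 ZT12 libraries, with 0, 2.13, 0 and 0 CPM at ZT12 and 3.87, 5.20 and 8.29 CPM at ZT16, but was not called (log2 3.35 ± 1.16, adjusted p 0.121). Without ZT12 replicate 2 it was called, at adjusted p 0.00929. *Cry1*, a repressor of BMAL1 and CLOCK, read 11.1, 9.38, 8.65 and 12.0 CPM at ZT12 and 23.9, 22.2 and 19.3 CPM at ZT16 (log2 1.09 ± 0.14, adjusted p 0.00464). Every ZT16 value was above every ZT12 value. *Per2*, a partner of the CRY proteins, also rose without overlap (log2 0.70 ± 0.10, adjusted p 0.00755). *Per1* read 48.8, 28.6, 31.2 and 30.04 CPM at ZT12 and 11.5, 14.5 and 13.4 CPM at ZT16 (log2 -1.40 ± 0.20, adjusted p 0.00768). ZT12 replicate 1 stood above the other ZT12 libraries, and the groups did not overlap with or without it. *Nr1d1*, which encodes the repressor REV-ERBα, read 59.9, 59.9, 52.9 and 39.8 CPM at ZT12 and 7.002, 15.1 and 9.71 CPM at ZT16 (log2 -2.32 ± 0.26, adjusted p 0.00328). *Nr1d2*, which encodes REV-ERBβ, read 131, 118, 112 and 112 CPM at ZT12 and 49.6, 51.6 and 50.1 CPM at ZT16 (log2 -1.22 ± 0.08, adjusted p 0.000701), the lowest adjusted p in the list. For both genes each ZT12 library exceeded each ZT16 library. *Per3* (log2 -0.53 ± 0.09, adjusted p 0.015, but 0.0594 without ZT16 replicate 1 and 0.0603 without ZT16 replicate 3) and *Cry2* (log2 -0.35 ± 0.08, adjusted p 0.0298, but 0.0678 to 0.0943 without ZT12 replicate 1 or 4 or ZT16 replicate 1, 2 or 3) fell by less. The fit of all 20 GR LKO control-diet libraries did not call *Per2* (adjusted p 0.197) or *Per3* (0.109). The kinase genes *Csnk1d* (-0.07) and *Csnk1e* (0.19), the ubiquitin ligase genes *Fbxl21* (-0.13) and *Fbxw11* (-0.02) and *Rora* (0.01) were not called, and *Npas2* was not tested because of low counts.

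The levels at all 6 times place the step within the day of GR LKO mice on the control diet (3 to 4 libraries a time). Mean *Arntl* was 26.5, 16.3, 1.72, 0.159, 7.52 and 26.8 CPM at ZT0, ZT4, ZT8, ZT12, ZT16 and ZT20, lowest at ZT12 and highest at ZT20. In the same order, mean *Nr1d1* was 16.3, 137, 165, 53.1, 10.6 and 2.55 CPM, past its highest level by ZT12 and still falling at ZT16. Mean *Dbp* was 0.362, 9.60, 84.2, 100.4, 21.4 and 2.23 CPM in that order, highest at ZT12. *Per2* means were 20.3, 5.58, 28.3, 68.0, 110.3 and 39.1 CPM, highest at ZT16. *Cry1* means were 25.9, 8.86, 4.77, 10.3, 21.8 and 48.1 CPM, lowest at ZT8 and highest at ZT20, so ZT16 was midway in its climb. Only the ZT16 and ZT12 values are compared by a test here, and the order of the other times is a description.

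**Figure D2:**
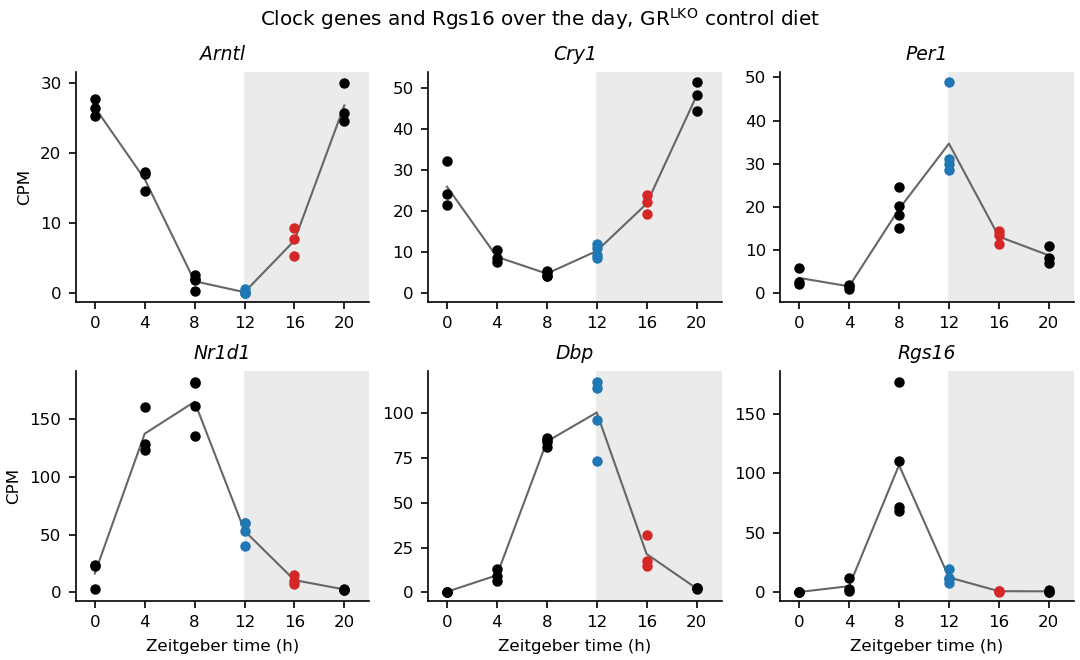
CPM of *Arntl*, *Cry1*, *Per1*, *Nr1d1*, *Dbp* and *Rgs16* in every GR LKO control-diet library over ZT0 to ZT20, with points for libraries, a line through the means, grey for the dark phase, and ZT12 and ZT16 in colour. Between ZT12 and ZT16 mean *Arntl* went from 0.159 to 7.52 CPM and mean *Dbp* from 100.4 to 21.4 CPM.

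In the list of clock output genes, 1 of 17 tested members rose and 8 fell, with a median of -0.36. The fallers numbered 5 without ZT16 replicate 1. *Dbp*, the PAR bZIP activator of D-box genes, read 118, 114, 96.1 and 73.6 CPM at ZT12 and 17.7, 32.0 and 14.6 CPM at ZT16 (log2 -2.23 ± 0.28, adjusted p 0.00498). Its relative *Tef* read 309, 308, 275 and 292 CPM at ZT12 and 152, 173 and 167 CPM at ZT16 (log2 -0.84 ± 0.08, adjusted p 0.00207), whereas *Hlf* of the same family was not called (-0.12). In *Dbp* and *Tef* the 2 groups stood apart in every library. *Ciart*, which encodes a repressor of CLOCK and BMAL1, read 21.2, 20.2, 18.5 and 19.8 CPM at ZT12 and 6.19, 9.04 and 10.7 CPM at ZT16 (log2 -1.20 ± 0.17, adjusted p 0.00712). *Usp2*, a deubiquitinase gene (log2 -0.97 ± 0.11, adjusted p 0.00338), and *Klf9*, a zinc-finger repressor gene (log2 -0.61 ± 0.07, adjusted p 0.00345), fell in the same way. *Por*, the electron donor of microsomal P450 enzymes, fell with log2 -0.62 ± 0.11, adjusted p 0.0145 (0.0554 without ZT16 replicate 1 and 0.0592 without ZT16 replicate 3). *Bhlhe41*, an E-box repressor gene, fell with log2 -1.25 ± 0.24, adjusted p 0.0196 (0.059 without ZT16 replicate 1 and 0.0672 without ZT16 replicate 2), and *Wee1*, a mitotic inhibitor kinase gene, with log2 -0.51 ± 0.12, adjusted p 0.0374 (0.0502 to 0.125 without ZT12 replicate 1, 2, 3 or 4 or ZT16 replicate 1 or 2). *Nfil3*, the repressor that competes for D-boxes, was the called riser (log2 0.70 ± 0.18, adjusted p 0.0439, but 0.0555 to 0.141 without ZT12 replicate 2, 3 or 4 or ZT16 replicate 1, 2 or 3), and without ZT12 replicate 1 the list had 2 risers. *E2f8* (1.07), *Tspan4* (0.47), *Noct* (0.39), *Bhlhe40* (-0.36), *Lonrf3* (0.47), *Nampt* (0.05) and *Klf10* (0.16) were not called, although *E2f8* was without ZT12 replicate 2 (adjusted p 0.014) and *Noct* without ZT12 replicate 1 (adjusted p 0.043). DESeq2 called *E2f8* (adjusted p 0.0201) and *Tspan4* (0.0465) and not *Noct*, and the fit of all 20 libraries called *Tspan4* (0.0272) and did not call *Wee1* (0.0587).

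Promoter sequences were searched because known activators of the clock genes read fixed letters. RefSeq promoters (GRCm38.p6, 250 bases before to 50 after the gene start) matched 9096 of the 11753 tested genes, and motifs were searched on both strands. The E-box CACGTG was in 11.8% of them, in 12.6% of the 390 promoters of risen genes and in 16.4% of the 450 promoters of fallen genes. The ROR element TAGGTCA was in 2.45% of all, 4.36% of risen and 2.44% of fallen, and the D-box TTANGTAA in 1.99%, 2.31% and 3.78%. In the core clock list the E-box was in 2 of 12 promoters (16.7%), those of *Cry1*, which rose, and *Per1*, which fell. In clock output it was in 5 of 14 (35.7%), those of the fallers *Bhlhe41*, *Ciart* and *Tef* and of *Lonrf3* and *Tspan4*, which were not called. The ROR element was in 1 of 12 and 1 of 14. No share was tested. *Arntl* holds a ROR element at chr7:113207541-113207547 (plus strand), *Nfil3* one at chr13:52981045-52981051 (plus strand), *Per1* an E-box at chr11:69098783-69098788 and *Cry1* one at chr10:85185109-85185114, an E-box reading the same on either strand. *Ciart* holds 3 E-boxes, at chr3:95882339-95882344, chr3:95882281-95882286 and chr3:95882267-95882272, and its 250 bases before the start (chr3:95882229-95882478, minus strand) are shown because no other called member of either clock list has as many, with the E-boxes in capitals. A match describes letters in the window and not a bound site.
Ciart: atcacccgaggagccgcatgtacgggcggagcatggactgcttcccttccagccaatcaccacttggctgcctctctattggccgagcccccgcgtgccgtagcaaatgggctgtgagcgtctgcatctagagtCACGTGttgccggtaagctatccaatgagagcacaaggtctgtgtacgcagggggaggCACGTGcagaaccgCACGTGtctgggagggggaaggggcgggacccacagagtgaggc

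By the naming rule, the 12 called genes with the largest rise and the 12 with the largest fall, at 5 CPM or more in 1 group and without overlap, included several outside the lists. *Rgs16*, a regulator of G protein signalling, fell most of these and read 11.8, 11.1, 19.7 and 7.85 CPM at ZT12 and 1.29, 0.48 and 1.26 CPM at ZT16 (log2 -3.61 ± 0.43, adjusted p 0.00382). All 3 ZT16 libraries were at or under 1.29 CPM while all 4 ZT12 libraries were at or above 7.85. *Gpcpd1*, a glycerophosphocholine phosphodiesterase gene, read 229, 138, 209.9 and 174 CPM at ZT12 and 38.7, 50.3 and 57.0 CPM at ZT16 (log2 -1.95 ± 0.20, adjusted p 0.00273). *Syt1*, a calcium sensor of vesicle fusion, fell with log2 -1.82 ± 0.14, adjusted p 0.00105 and *Tcp11l2* with log2 -1.64 ± 0.20, adjusted p 0.00392. *Unc93a2* (-1.77, 0.021, but 0.056 to 0.0804 without ZT12 replicate 1 or ZT16 replicate 2 or 3) and *Tox*, an HMG-box factor gene (-1.68, 0.0232, but 0.057 to 0.086 without ZT12 replicate 1 or ZT16 replicate 2 or 3), were less firm. Among risers, *Lrfn3*, a synaptic adhesion gene, read 1.63, 1.70, 2.22 and 1.81 CPM at ZT12 and 11.8, 10.4 and 12.4 CPM at ZT16 (log2 2.65 ± 0.16, adjusted p 0.000634). It was several times higher in each ZT16 library than in any ZT12 library. *Slc45a3*, a proton-coupled sugar transporter gene, rose with log2 2.26 ± 0.22, adjusted p 0.00207 and *Adamts15*, a metalloprotease gene, with log2 2.68 ± 0.38, adjusted p 0.00712. *Ikzf4*, a zinc-finger factor gene, was at 0 counts in 3 of 4 ZT12 libraries and 9.04, 4.96 and 11.9 CPM at ZT16 (log2 5.003 ± 0.97, adjusted p 0.0189, but 0.0595 without ZT16 replicate 1 and 0.0781 without ZT16 replicate 3), and DESeq2 did not call it. *Bcl9l*, a Wnt coactivator gene (3.73, 0.0408, but 0.0581 to 0.136 without ZT12 replicate 1 or 2 or ZT16 replicate 1, 2 or 3), *Chrna4*, an acetylcholine receptor subunit gene (2.63, 0.0475, but 0.0661 to 0.125 without ZT12 replicate 1, 2, 3 or 4 or ZT16 replicate 1 or 3), and *Derl3* of ER-associated degradation (3.24, 0.0426, but 0.0583 to 0.154 without ZT12 replicate 1, 2 or 3 or ZT16 replicate 2 or 3) were called at wide spread. DESeq2 did not call *Bcl9l* (adjusted p 0.206) or *Derl3* (0.0556), and the fit of all 20 libraries did not call *Derl3* (0.108). For *Chrna4* the ZT16 libraries read 106, 15.1 and 24.4 CPM, and without ZT16 replicate 1 its log2 change was 1.32.

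In the list of heat shock and temperature genes, 16 of 22 tested members rose and 1 fell, with a median of 0.96 beside 0.01 for all genes. With 1 library left out, 12 to 16 rose. *Hsp90aa1*, the inducible HSP90, read 91.4, 115, 100.1 and 90.9 CPM at ZT12 and 405, 401 and 586 CPM at ZT16 (log2 2.23 ± 0.16, adjusted p 0.000742). *Hsph1*, the HSP110 exchange factor, read 8.89, 7.79, 4.84 and 4.43 CPM at ZT12 and 25.0, 37.9 and 40.8 CPM at ZT16 (log2 2.41 ± 0.27, adjusted p 0.00325; the fit of all 20 GR LKO control-diet libraries did not call it). Each ZT16 value was above the highest ZT12 value in both genes. *Hspb1*, a small heat shock protein gene, read 9.35, 11.1, 10.6 and 7.85 CPM at ZT12 and 33.3, 32.7 and 40.4 CPM at ZT16 (log2 1.87 ± 0.13, adjusted p 0.000764). The HSP90 co-chaperone genes *Fkbp4* (log2 0.99 ± 0.08, adjusted p 0.0011), *Chordc1* (log2 0.95 ± 0.08, adjusted p 0.00166) and *Stip1* (log2 1.22 ± 0.11, adjusted p 0.00174) rose without overlap. *Hspa8*, the constitutive HSP70 gene and the most abundant of the list by CPM, chosen for that after its values were seen, read 952, 1026, 721 and 1009 CPM at ZT12 and 1673, 2309 and 2949 CPM at ZT16 (log2 1.32 ± 0.20, adjusted p 0.00819). *Cirbp*, a cold-induced RNA-binding protein gene that stands out as the faller and was also chosen after its values were seen, read 24.6, 26.2, 19.4 and 22.6 CPM at ZT12 and 15.02, 13.6 and 10.3 CPM at ZT16 (log2 -0.83 ± 0.16, adjusted p 0.0167, but 0.0526 without ZT16 replicate 2 and 0.0531 without ZT16 replicate 3). The list's summed level was 3084, 3079, 2869 and 3151 CPM at ZT12 and 5253, 5817 and 7380.0 CPM at ZT16, so ZT16 replicate 3 was the highest library, and all 3 exceeded the 4 ZT12 libraries. *Hspa4* (0.27), *Hspd1* (0.27), *Serpinh1* (1.23), *Rbm3* (-0.10) and *Hspa1a* (1.54) were not called, *Hspa1a* being a near copy of the called *Hspa1b* (1.93), which makes the split of reads between them uncertain. *Hsf1* itself was not tested because of low counts. The heat shock element (GAA, TTC and GAA, each 2 bases apart) was in 0.561% of all tested promoters, 0.769% of risen and 0.667% of fallen. It was in 4 of 18 of this list (22.2%) and in 3 of the 14 called members with a promoter (21.4%), shown here with the fixed letters in capitals for *Chordc1* (chr9:18292263-18292275 on the plus strand, where further matches overlap it), *Hspe1* (chr1:55088064-55088076, plus, overlapped by a match on the minus strand) and *Hsph1* (chr5:149636288-149636300, plus).
Chordc1: GAAcgTTCggGAA
Hspe1: GAAccTTCcgGAA
Hsph1: GAActTTCcaGAA

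**Figure D3:**
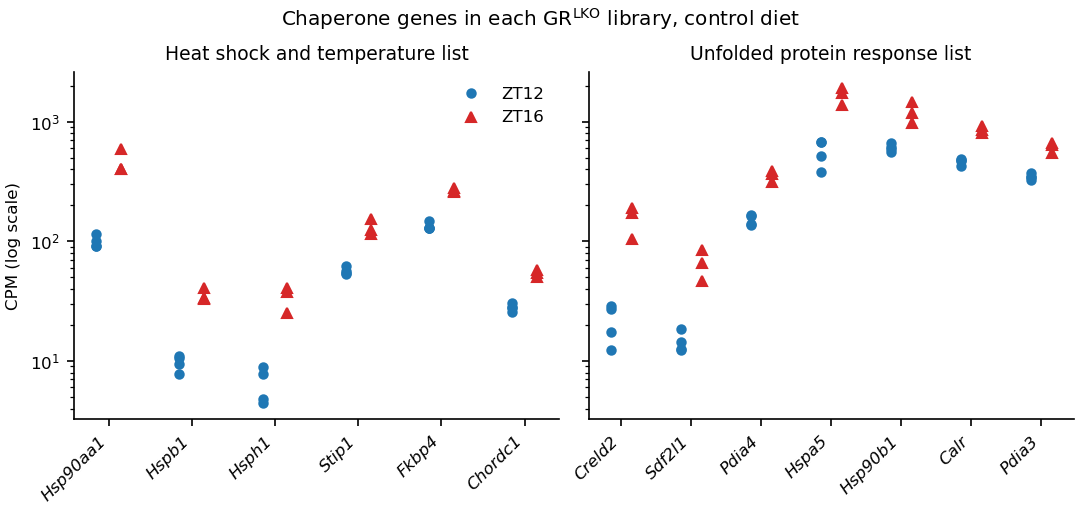
CPM on a log axis of chaperone genes of the cytosol and the ER in each library, with circles for the 4 ZT12 and triangles for the 3 ZT16 libraries. *Hsp90aa1* read 90.9 to 115 CPM at ZT12 and 401 to 586 CPM at ZT16.

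In the list of the unfolded protein response, 14 of 24 tested members rose and 0 fell (for falls, 0 at an unadjusted p under 0.05 and 0 by DESeq2), with a median of 0.74. Without ZT16 replicate 3 the risers numbered 9, and 10 to 15 in the other fits that leave out 1 library. *Creld2*, an ER-resident factor for disulfide formation, read 27.3, 28.7, 12.3 and 17.5 CPM at ZT12 and 105, 173 and 191 CPM at ZT16 (log2 2.86 ± 0.31, adjusted p 0.00316). The lowest ZT16 library was well above the highest ZT12 library. *Sdf2l1*, a partner of ER DnaJ proteins, read 12.6, 18.5, 12.5 and 14.4 CPM at ZT12 and 46.8, 84.2 and 65.6 CPM at ZT16 (log2 2.18 ± 0.21, adjusted p 0.00207). *Pdia4* (log2 1.24 ± 0.10, adjusted p 0.00157) and *Pdia3* (log2 0.83 ± 0.09, adjusted p 0.00325), both protein disulfide isomerase genes, and *Calr*, the lectin chaperone calreticulin (log2 0.90 ± 0.09, adjusted p 0.00207), rose without overlap. *Hspa5*, which encodes BiP and is the most abundant member by CPM, read 680.5, 674, 383 and 517 CPM at ZT12 and 1386, 1733 and 1914 CPM at ZT16 (log2 1.58 ± 0.21, adjusted p 0.00542). *Hsp90b1*, the HSP90 of the ER, rose with log2 1.00 ± 0.14, adjusted p 0.00593, and *Syvn1*, the ubiquitin ligase of ER-associated degradation, with log2 1.53 ± 0.19, adjusted p 0.00413. *Dnajc3*, an inhibitor of the kinase PERK, rose with log2 0.71 ± 0.13, adjusted p 0.0164 (0.0556 without ZT16 replicate 2 and 0.0756 without ZT16 replicate 3). *Hspa5*, *Hsp90b1*, *Syvn1* and *Dnajc3* were chosen after their values were seen, for the promoter element described next. The sensors *Atf6* (-0.10), *Ern1* (-0.25) and *Eif2ak3* (0.04) and the factor gene *Xbp1* (0.05) were not called. Neither were *Herpud1* (-0.10) and *Dnajb9* (0.23). The summed level of the list was 4618, 4545, 3506 and 4144 CPM at ZT12 and 6804, 8214 and 8766 CPM at ZT16. All 3 ZT16 sums exceeded the 4 ZT12 sums.

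The ER stress element (CCAAT, 9 free bases, CCACG), read by ATF6 together with NF-Y, was in 15 of 9096 tested promoters (0.165%). Of these 15 genes, 8 were among the 390 risen genes with a promoter (2.05%): *Alg12*, *Calr*, *Creld2*, *Derl3*, *Dnajc3*, *Hsp90b1*, *Hspa5* and *Syvn1*, listed after their values were seen. DESeq2 did not call *Derl3* of these. None of the 15 was among the 450 fallen genes with a promoter. In the list of the unfolded protein response it was in 8 of 20 promoters (40.0%) and in 6 of the 12 of called members. *Canx* (0.33) and *Pdia6* (-0.47) hold it and were not called. The search pattern sets the fixed letters, so their recurrence from gene to gene is not a result. The elements of the 6 called members are set side by side, with the fixed letters in capitals and the 9 free bases in lower case. They lie at chr2:34772025-34772043 (Hspa5, plus strand), chr10:86705638-86705656 (Hsp90b1, minus strand), chr10:86705533-86705551 (Hsp90b1, plus strand), chr8:84847075-84847093 (Calr, plus strand), chr15:88819520-88819538 (Creld2, minus strand), chr14:118937827-118937845 (Dnajc3, plus strand) and chr19:6046532-6046550 (Syvn1, plus strand) in GRCm38.p6.
Hspa5: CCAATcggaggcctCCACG
Hsp90b1 upstream: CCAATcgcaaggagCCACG
Hsp90b1 downstream: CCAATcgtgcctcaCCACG
Calr: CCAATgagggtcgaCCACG
Creld2: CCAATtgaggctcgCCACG
Dnajc3: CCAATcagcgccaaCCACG
Syvn1: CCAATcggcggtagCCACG
The 250 bases before the start of *Hspa5* (chr2:34771840-34772089, plus strand) and of *Creld2* (chr15:88819396-88819645, plus strand) show where the element sits ahead of the list's most abundant gene and of its largest riser, and capitals mark the fixed letters, which read in reverse complement in *Creld2*.
Hspa5: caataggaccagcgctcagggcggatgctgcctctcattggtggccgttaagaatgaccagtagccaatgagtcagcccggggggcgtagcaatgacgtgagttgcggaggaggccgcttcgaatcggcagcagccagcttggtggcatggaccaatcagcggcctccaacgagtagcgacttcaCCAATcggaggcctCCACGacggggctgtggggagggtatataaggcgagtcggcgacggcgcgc
Creld2: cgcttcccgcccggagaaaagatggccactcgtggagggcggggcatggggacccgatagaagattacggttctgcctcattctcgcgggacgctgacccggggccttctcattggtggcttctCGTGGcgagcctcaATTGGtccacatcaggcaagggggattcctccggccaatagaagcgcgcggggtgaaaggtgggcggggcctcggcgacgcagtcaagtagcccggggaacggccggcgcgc

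Genes known as GR targets were followed because the receptor is absent from the hepatocytes: 2 of 19 tested members rose and 3 fell, with a median of -0.40. With 1 library left out, 2 rose in each fit and 2 to 4 fell. *Tsc22d3*, which encodes the glucocorticoid-induced leucine zipper, read 42.0, 29.8, 31.8 and 38.8 CPM at ZT12 and 58.1, 65.5 and 67.9 CPM at ZT16 (log2 0.85 ± 0.13, adjusted p 0.00846). *Ddit4*, an inhibitor of mTORC1, read 3.01, 3.11, 4.45 and 2.82 CPM at ZT12 and 7.48, 9.12 and 7.42 CPM at ZT16 (log2 1.27 ± 0.20, adjusted p 0.00973). Both were higher in each ZT16 library than in any ZT12 library. Whole liver also holds other cells, which keep *Nr3c1* transcripts, and which cells carried the rise was not tested. The fallers were *Per1* (-1.40) and *Klf9* (-0.61), which are also clock genes, and *Pck1*. *Fkbp5*, a GR co-chaperone gene, read 17.0, 16.7, 15.2 and 10.5 CPM at ZT12 and 12.5, 14.4 and 11.9 CPM at ZT16 and was not called (log2 -0.20 ± 0.17, adjusted p 0.558). *Tat*, tyrosine aminotransferase, read 1586, 868, 1236 and 1438 CPM at ZT12 and 1935, 2329 and 1894 CPM at ZT16, with no overlap, and was not called by edgeR (log2 0.68 ± 0.19, adjusted p 0.0663) but was by DESeq2. *Angptl4* was not called (log2 -0.78 ± 0.23, adjusted p 0.0792) except without ZT12 replicate 4 (adjusted p 0.0186), nor was *Mt1* (log2 -1.79 ± 0.51, adjusted p 0.0712) except without ZT12 replicate 2 (adjusted p 0.0125). DESeq2 called both, and the fit of all 20 libraries called *Mt1* (adjusted p 0.0229). The others, none of them called by edgeR, were *Cdkn1a* (0.88), *Mt2* (-1.40), *Igfbp1* (-0.97), *G6pc* (-0.68), *Zbtb16* (-0.48), *Sgk1* (-0.40), *Dusp1* (0.19), *Tdo2* (-0.14), *Klf15* (-0.13) and *Errfi1* (-0.05), and DESeq2 called *G6pc* (adjusted p 0.0359). The size for *Igfbp1* is uncertain, at -2.72 without ZT16 replicate 1 and -0.50 without ZT12 replicate 1. Over the alternative fits the log2 change also ranged from -0.05 to 0.85 for *Dusp1*, 0.43 to 1.07 for *Cdkn1a* and -2.11 to -0.86 for *Mt2*. *Gadd45b*, *Lcn2* and *Sult1e1* were not tested because of low counts. The glucocorticoid response element (GNACA and TGTNC, 3 bases apart) was in 0.363% of all tested promoters, 0.256% of risen and 0.222% of fallen. In the GR target list it was in 2 of 17 promoters (11.8%), those of *Mt1* and *Sgk1*.

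Of the insulin and FoxO target genes, 0 of 23 tested members rose and 4 fell (for rises, 1 at an unadjusted p under 0.05 and 1 by DESeq2), with a median of -0.19. The fallers numbered 1 without ZT16 replicate 3 and 2 without ZT16 replicate 1, and 1 member rose without ZT12 replicate 3. *Insr*, the insulin receptor gene, read 148, 133, 144 and 151 CPM at ZT12 and 93.3, 99.5 and 101 CPM at ZT16 (log2 -0.55 ± 0.08, adjusted p 0.00583). *Irs2*, the adaptor of that receptor, read 38.9, 18.2, 14.0 and 18.0 CPM at ZT12 and 6.32, 3.84 and 4.26 CPM at ZT16 (log2 -2.20 ± 0.39, adjusted p 0.0139, but 0.056 without ZT16 replicate 2 and 0.0668 without ZT16 replicate 3). ZT12 replicate 1 was far above the rest of its group in *Irs2*, and all ZT16 libraries were below all ZT12 libraries. *Pck1*, the gluconeogenic PEP carboxykinase, read 3465, 1899.5, 2079.9 and 1654 CPM at ZT12 and 589.9, 1006 and 494 CPM at ZT16 (log2 -1.70 ± 0.32, adjusted p 0.018, but 0.0705 without ZT16 replicate 1 and 0.0748 without ZT16 replicate 3). *Foxo4* fell by less (log2 -0.41 ± 0.07, adjusted p 0.0155, but 0.0547 without ZT16 replicate 1 and 0.0585 without ZT16 replicate 3), and *G6pc*, the other gluconeogenic enzyme of the list, was not called by edgeR (log2 -0.68 ± 0.26, adjusted p 0.148) but was by DESeq2 (adjusted p 0.0359).

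In glucose use and glycogen, 0 of 32 tested members rose and 4 fell (for rises, 4 at an unadjusted p under 0.05 and 2 by DESeq2), with a median of 0.11. *Ppp1r3g*, a glycogen-targeting subunit of protein phosphatase 1, read 3.66, 3.35, 6.03 and 3.35 CPM at ZT12 and 0, 0.16 and 0.473 CPM at ZT16 (log2 -4.26 ± 0.68, adjusted p 0.00999; the fit of all 20 GR LKO control-diet libraries did not call it), with 1 ZT16 library at 0 counts, so the fold is uncertain in size. Its relative *Ppp1r3b* read 14.0, 23.7, 30.6 and 90.5 CPM at ZT12 and 207, 133 and 172 CPM at ZT16, a larger mean at ZT16 without overlap, but was not called (log2 2.10 ± 0.55, adjusted p 0.0526, chosen after its values were seen). *Slc2a2*, the GLUT2 transporter (log2 -0.55 ± 0.13, adjusted p 0.0374, but 0.0617 to 0.115 without ZT12 replicate 1, 3 or 4 or ZT16 replicate 1, 2 or 3), and *Pdk2*, a pyruvate dehydrogenase kinase (log2 -0.50 ± 0.12, adjusted p 0.0374, but 0.0504 to 0.123 without ZT12 replicate 2, 3 or 4 or ZT16 replicate 1, 2 or 3), fell. With libraries left out, the risers numbered 1 without ZT12 replicate 3 and 2 without ZT12 replicate 4, and the fallers 1 without ZT16 replicate 1 and 2 without ZT12 replicate 3 or 4 or ZT16 replicate 2 or 3.

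In fatty acid synthesis, 2 of 26 tested members rose and 0 fell (for falls, 1 at an unadjusted p under 0.05 and 1 by DESeq2), with a median of 0.31. Its risers numbered 0 without ZT12 replicate 2 or ZT16 replicate 1 or 3 and 1 without ZT12 replicate 1 or ZT16 replicate 2 and 4 without ZT12 replicate 3, and 1 member fell without ZT16 replicate 1. *Fasn*, fatty acid synthase, chosen after its values were seen for its spread among replicates, read 129, 147, 358 and 506 CPM at ZT12 and 930.1, 505 and 642 CPM at ZT16 and was not called (log2 1.29 ± 0.47, adjusted p 0.144). ZT12 replicate 4 lay within the ZT16 values and ZT12 replicates 1 and 2 far under them. *Agpat2*, an acyltransferase of triglyceride synthesis, read 136, 162, 212 and 189 CPM at ZT12 and 318, 264 and 273 CPM at ZT16 (log2 0.71 ± 0.15, adjusted p 0.0259, but 0.056 to 0.0892 without ZT12 replicate 2 or ZT16 replicate 1, 2 or 3). *Pnpla3*, a lipid droplet hydrolase, read 0.0654, 0.365, 1.35 and 0.805 CPM at ZT12 and 19.2, 2.72 and 4.50 CPM at ZT16 (log2 3.81 ± 0.86, adjusted p 0.0316, but 0.0635 to 0.12 without ZT12 replicate 1, 2 or 4 or ZT16 replicate 1 or 3). Without ZT16 replicate 1 its log2 change was 2.50. In cholesterol synthesis and uptake, 1 of 27 tested members rose and 0 fell, with a median of 0.21. At an unadjusted p under 0.05, 7 rose and 2 fell, and by DESeq2 3 rose and 1 fell. The risers numbered 0 without ZT16 replicate 1 and 7 without ZT12 replicate 4, with 1 faller without ZT12 replicate 3. *Mvd*, mevalonate diphosphate decarboxylase, read 9.48, 6.64, 10.6 and 17.7 CPM at ZT12 and 44.3, 30.01 and 31.4 CPM at ZT16 (log2 1.68 ± 0.30, adjusted p 0.0148, but 0.0537 without ZT16 replicate 1). The cholesterol list summed to 3524, 3081, 3592 and 5346 CPM at ZT12 and 5565, 4322 and 4458 CPM at ZT16, and ZT12 replicate 4 exceeded 2 of the 3 ZT16 libraries. The sterol element TCACNCCAC was in 1.46% of all tested promoters, 2.05% of risen and 1.11% of fallen.

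In fatty acid oxidation and ketogenesis, 1 of 36 tested members rose and 1 fell (by DESeq2, 3 rose and 2 fell), with a median of -0.04. *Cpt1a*, the gate of mitochondrial fatty acid entry, read 496, 396, 526 and 446 CPM at ZT12 and 309, 260.2 and 261 CPM at ZT16 (log2 -0.74 ± 0.12, adjusted p 0.0113, but 0.0509 without ZT16 replicate 3). *Acot1*, an acyl-CoA thioesterase with close relatives in the genome, rose with log2 1.00 ± 0.22, adjusted p 0.0268 (0.0568 to 0.0973 without ZT12 replicate 1, 3 or 4 or ZT16 replicate 1 or 3). The risers numbered 0 without ZT12 replicate 1 or 4 or ZT16 replicate 1 or 3 and 3 without ZT12 replicate 3, and the fallers 0 without ZT16 replicate 3 and 2 without ZT12 replicate 4. Of bile acid genes, 0 of 23 tested members rose and 4 fell (for rises, 2 at an unadjusted p under 0.05 and 1 by DESeq2), with a median of -0.20. The fallers numbered 2 without ZT12 replicate 1 or 3 or ZT16 replicate 1, 2 or 3. *Abcg8* and *Abcg5* together encode the canalicular sterol exporter. *Abcg8* read 128, 115, 144 and 103 CPM at ZT12 and 42.8, 59.1 and 42.1 CPM at ZT16 (log2 -1.34 ± 0.16, adjusted p 0.00382), and *Abcg5* read 113, 94.6, 124 and 84.1 CPM at ZT12 and 49.5, 63.1 and 46.6 CPM at ZT16 (log2 -0.96 ± 0.16, adjusted p 0.0113, but 0.0517 without ZT16 replicate 3). The pair fell together in all 3 ZT16 libraries. The canalicular pumps *Abcc2* (log2 -0.56 ± 0.12, adjusted p 0.0302, but 0.0523 to 0.0953 without ZT12 replicate 1, 3 or 4 or ZT16 replicate 1, 2 or 3) and *Abcb4* (log2 -0.38 ± 0.09, adjusted p 0.0422, but 0.0565 to 0.129 without ZT12 replicate 1, 2 or 3 or ZT16 replicate 1, 2 or 3) fell by less. *Cyp7a1*, the first enzyme of bile acid synthesis, was not called (-0.36).

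In autophagy and lysosome, 0 of 39 tested members rose and 8 fell (for rises, 0 at an unadjusted p under 0.05 and 0 by DESeq2), with a median of -0.18. The fallers numbered 3 without ZT12 replicate 1 or ZT16 replicate 1 or 3 and 4 without ZT12 replicate 4 or ZT16 replicate 2 and 5 without ZT12 replicate 2. *Gabarapl1*, an ATG8 family gene, read 413, 375, 358 and 391 CPM at ZT12 and 171, 199 and 176 CPM at ZT16 (log2 -1.07 ± 0.09, adjusted p 0.00157). *Ulk1*, the kinase that starts autophagosome formation, read 90.3, 86.5, 91.7 and 90.8 CPM at ZT12 and 45.9, 44.0 and 32.0 CPM at ZT16 (log2 -1.14 ± 0.12, adjusted p 0.00316). Each ZT12 library was above each ZT16 library in both. *Atg2a*, a lipid transfer gene, fell with log2 -0.60 ± 0.09, adjusted p 0.00883, *Wipi1* with log2 -0.68 ± 0.14, adjusted p 0.0221 (0.0518 to 0.0846 without ZT12 replicate 1, 2 or 4 or ZT16 replicate 1, 2 or 3) and *Wipi2* with log2 -0.30 ± 0.06, adjusted p 0.0234 (0.0568 to 0.0901 without ZT12 replicate 1 or 2 or ZT16 replicate 1, 2 or 3), both of them phosphoinositide effector genes. *Depp1*, a FoxO-responsive regulator of autophagy, read 49.4, 40.7, 16.2 and 30.1 CPM at ZT12 and 14.96, 9.36 and 6.47 CPM at ZT16 (log2 -1.72 ± 0.41, adjusted p 0.0369, but 0.0514 to 0.128 without ZT12 replicate 1, 2 or 4 or ZT16 replicate 1, 2 or 3). In the amino acid stress response, 1 of 21 tested members rose and 4 fell, with a median of 0.04. The fallers numbered 1 without ZT16 replicate 2 or 3 and 2 without ZT12 replicate 1 or 4 or ZT16 replicate 1. *Trib3*, a pseudokinase gene induced by ATF4, read 7.19, 5.66, 6.27 and 7.98 CPM at ZT12 and 1.29, 1.36 and 1.34 CPM at ZT16 (log2 -2.34 ± 0.20, adjusted p 0.00164). *Sesn2* (log2 -1.23 ± 0.25, adjusted p 0.0233, but 0.0816 without ZT16 replicate 2 and 0.0869 without ZT16 replicate 3), a leucine sensor gene, *Stbd1* (log2 -0.59 ± 0.13, adjusted p 0.0299, but 0.0506 to 0.0873 without ZT12 replicate 1, 3 or 4 or ZT16 replicate 1, 2 or 3), a glycogen receptor gene, and *Slc38a2* (log2 -1.11 ± 0.28, adjusted p 0.0439, but 0.0531 to 0.154 without ZT12 replicate 1, 2 or 4 or ZT16 replicate 1, 2 or 3), an amino acid transporter gene, also fell, and the riser was *Ddit4*, given above. *Atf4* (0.06), *Ddit3* (0.41) and *Asns* (0.14) were not called. In ribosome biogenesis, 4 of 44 tested members rose and 1 fell, with a median of 0.04. The risers numbered 2 without ZT12 replicate 1, 2 or 3 or ZT16 replicate 1 or 3, and the fallers 0 without ZT12 replicate 1 or 2 or ZT16 replicate 1, 2 or 3. *Mybbp1a*, a nucleolar factor gene, read 53.2, 52.1, 53.2 and 59.1 CPM at ZT12 and 87.6, 76.3 and 92.4 CPM at ZT16 (log2 0.66 ± 0.09, adjusted p 0.00552), and *Nop16* rose with log2 0.65 ± 0.09, adjusted p 0.00768. *Bysl* (0.47, 0.0302, but 0.0522 to 0.122 without ZT12 replicate 1, 2, 3 or 4 or ZT16 replicate 1, 2 or 3), *Rrp12* (0.63, 0.036, but 0.0649 to 0.136 without ZT12 replicate 1, 2 or 3 or ZT16 replicate 1 or 3) and the faller *Gnl3* (-0.74, 0.0374, but 0.0609 to 0.124 without ZT12 replicate 1 or 2 or ZT16 replicate 1, 2 or 3) were less firm. *Gnl3* was also not called in the fit of all 20 libraries (adjusted p 0.0668).

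Other lists held few called members, given with their log2 fold change, adjusted p and, after "but", the adjusted p without the libraries that change the call. Over all genes 4.28% were called higher and 4.78% lower, and no list was tested against these shares. In the immediate early list, 3 of 22 tested members rose and 1 fell, with a median of 0.08, and called were *Btg2* (1.03, 0.0173, but 0.0628 without ZT16 replicate 1 and 0.0581 without ZT16 replicate 2), *Junb* (-1.21, 0.0198, but 0.0656 without ZT16 replicate 1 and 0.0809 without ZT16 replicate 3), *Id3* (0.73, 0.0374, but 0.0589 to 0.0859 without ZT12 replicate 1, 2, 3 or 4 or ZT16 replicate 3) and *Zfp36* (0.59, 0.0408, but 0.0833 to 0.15 without ZT12 replicate 1, 2 or 3 or ZT16 replicate 1 or 3). Risers in the immediate early list numbered 1 without ZT12 replicate 1, 2 or 3 or ZT16 replicate 1 or 3. Fallers in the immediate early list numbered 0 without ZT16 replicate 3 and 2 without ZT16 replicate 2. *Btg2* and *Zfp36* limit growth and mRNA stability, *Junb* is an AP-1 factor, and *Id3* an inhibitor of bHLH factors. The fit of all 20 libraries did not call *Btg2* (adjusted p 0.0814) or *Id3* (0.183). In xenobiotic metabolism, 1 of 32 tested members rose and 2 fell, with a median of -0.01, and called beside *Por* were *Nr1i3* (-1.01, 0.0131, but 0.0571 without ZT16 replicate 3) and *Fmo5* (0.56, 0.0346, but 0.0672 to 0.115 without ZT12 replicate 1, 2 or 4 or ZT16 replicate 1, 2 or 3). Risers in the xenobiotic metabolism list numbered 0 without ZT12 replicate 1, 2 or 4 or ZT16 replicate 1, 2 or 3 and 2 without ZT12 replicate 3. Fallers in the xenobiotic metabolism list numbered 0 without ZT16 replicate 3 and 1 without ZT16 replicate 1. *Nr1i3* encodes the receptor CAR, and *Fmo5* a monooxygenase. *Nr1i3* was not called in the fit of all 20 libraries (adjusted p 0.0512). In the cell cycle list, 2 of 29 tested members rose and 1 fell, with a median of 0.21, and called beside *Wee1* were *Mcm2* (1.177, 0.0152, but 0.0621 without ZT16 replicate 1 and 0.0634 without ZT16 replicate 3) and *Mcm4* (1.07, 0.0351, but 0.072 to 0.134 without ZT12 replicate 1, 2 or 4 or ZT16 replicate 1 or 3). Risers in the cell cycle list numbered 0 without ZT16 replicate 1 or 3 and 1 without ZT12 replicate 1 or 4. Fallers in the cell cycle list numbered 0 without ZT12 replicate 1, 2, 3 or 4 or ZT16 replicate 1 or 2. *Mcm2* and *Mcm4* encode subunits of the replicative helicase. In the interferon-stimulated list, 2 of 27 tested members rose and 0 fell, with a median of -0.04 (for falls, 2 at an unadjusted p under 0.05 and 0 by DESeq2), and called were *Stat2* (0.38, 0.0317, but 0.0587 to 0.111 without ZT12 replicate 1, 2, 3 or 4 or ZT16 replicate 2 or 3) and *Ifi47* (0.61, 0.0395, but 0.0556 to 0.129 without ZT12 replicate 1, 2, 3 or 4 or ZT16 replicate 1, 2 or 3). Risers in the interferon-stimulated list numbered 0 without ZT12 replicate 1, 2 or 4 or ZT16 replicate 2 or 3 and 1 without ZT12 replicate 3 or ZT16 replicate 1. *Stat2* is the interferon signal transducer, and *Ifi47* a GTPase. *Ifi47* was not called in the fit of all 20 libraries (adjusted p 0.114).

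In the growth hormone and STAT5 list, 1 of 19 tested members rose and 0 fell, with a median of 0.00 (for falls, 2 at an unadjusted p under 0.05 and 1 by DESeq2), and called was *Igfals* (0.61, 0.0294, but 0.0608 to 0.102 without ZT12 replicate 3 or ZT16 replicate 1, 2 or 3). Risers in the growth hormone and STAT5 list numbered 0 without ZT12 replicate 3 or ZT16 replicate 1, 2 or 3 and 2 without ZT12 replicate 2. Fallers in the growth hormone and STAT5 list numbered 1 without ZT12 replicate 3. *Igfals* encodes the carrier subunit of circulating IGF1, and *Igf1* itself was not called (0.03). In the acute phase list, 0 of 31 tested members rose and 1 fell, with a median of 0.13 (for rises, 4 at an unadjusted p under 0.05 and 0 by DESeq2 and for falls, 3 at an unadjusted p under 0.05 and 3 by DESeq2), and called was *Lbp* (-0.41, 0.0423, but 0.0744 to 0.132 without ZT12 replicate 1, 2 or 3 or ZT16 replicate 1, 2 or 3). Risers in the acute phase list numbered 2 without ZT16 replicate 1. Fallers in the acute phase list numbered 0 without ZT12 replicate 1 or 3 or ZT16 replicate 1, 2 or 3. *Lbp* encodes a carrier of lipopolysaccharide and was not called in the fit of all 20 libraries (adjusted p 0.0554). In amino acid catabolism and the urea cycle, 0 of 38 tested members rose and 1 fell, with a median of 0.05 (for rises, 3 at an unadjusted p under 0.05 and 3 by DESeq2), and called was *Got1* (-0.53, 0.036, but 0.056 to 0.118 without ZT12 replicate 1 or 4 or ZT16 replicate 1, 2 or 3). Fallers in the amino acid catabolism and urea cycle list numbered 0 without ZT12 replicate 1 or 4 or ZT16 replicate 1 or 3. *Got1* is the cytosolic aspartate aminotransferase and was not called in the fit of all 20 libraries (adjusted p 0.124). The lists of protein synthesis, breakdown and respiration had no call by edgeR. In the cytosolic ribosome, 0 of 64 tested members rose and 0 fell, with a median of 0.04 (for rises, 0 at an unadjusted p under 0.05 and 0 by DESeq2 and for falls, 1 at an unadjusted p under 0.05 and 1 by DESeq2). Fallers in the cytosolic ribosome list numbered 1 without ZT12 replicate 2. In the proteasome list, 0 of 32 tested members rose and 0 fell, with a median of -0.02 (for rises, 1 at an unadjusted p under 0.05 and 0 by DESeq2 and for falls, 1 at an unadjusted p under 0.05 and 0 by DESeq2). In oxidative phosphorylation, 0 of 44 tested members rose and 0 fell, with a median of 0.04 (for rises, 2 at an unadjusted p under 0.05 and 0 by DESeq2 and for falls, 0 at an unadjusted p under 0.05 and 0 by DESeq2). In the list of oxidative stress genes under NRF2, 0 of 19 tested members rose and 0 fell, with a median of -0.02 (for rises, 2 at an unadjusted p under 0.05 and 0 by DESeq2 and for falls, 0 at an unadjusted p under 0.05 and 0 by DESeq2).

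**Figure D4:**
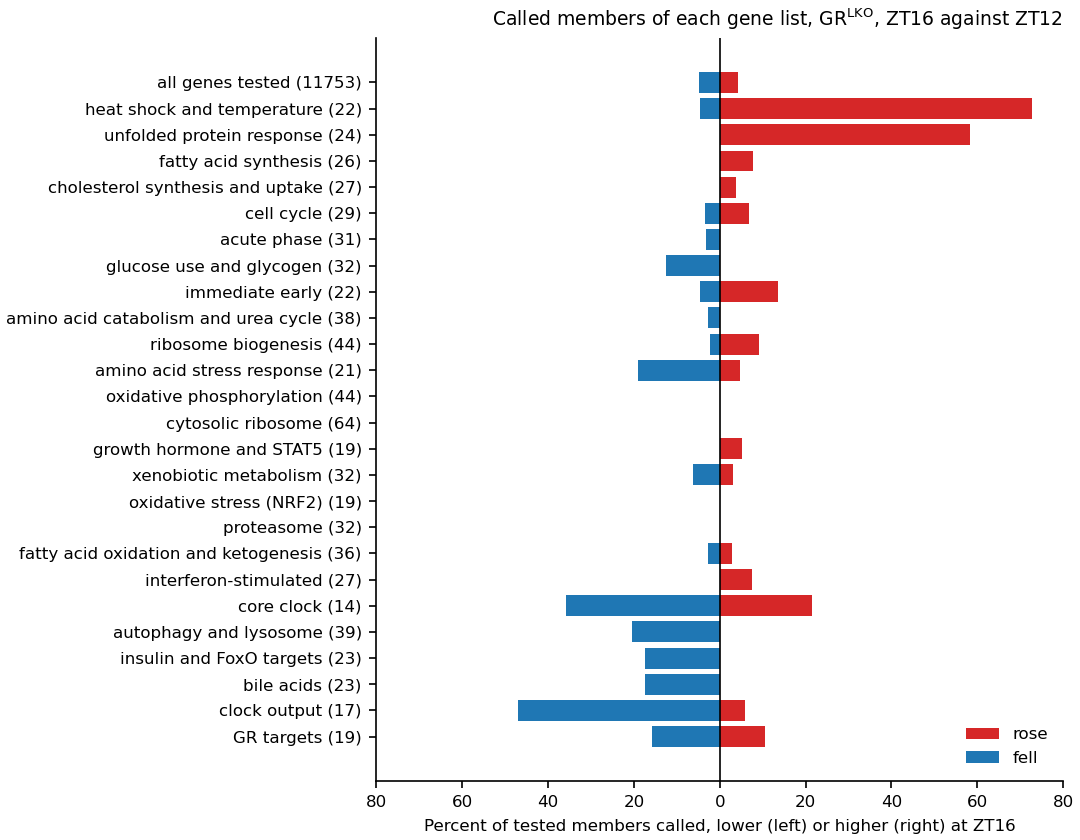
Percent of tested members of each pathway list called higher or lower at ZT16 (bars from 0, number tested in brackets), with all genes tested on top and the lists ordered by their median log2 fold change. Heat shock genes (16 of 22) and unfolded protein response genes (14 of 24) had the largest share called higher, and clock output genes (8 of 17) the largest share called lower.

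Marker lists were followed in each library, since whole liver was sequenced and fewer cells of a type cannot be told apart from less RNA per cell. The 7 hepatocyte markers summed to 73149.7, 67498, 76868 and 88092 CPM at ZT12 and 85773, 75367 and 85398 CPM at ZT16 (most abundant *Alb*, 53798 and 58744 CPM on average), and the 8 Kupffer and myeloid markers summed to 63.5, 95.8, 72.8 and 94.4 CPM at ZT12 and 69.1, 104 and 76.2 CPM at ZT16 (most abundant *Clec4f*, 22.7 and 26.1 CPM on average). Every library thus held hepatocyte transcripts. The 6 endothelial markers summed to 81.6, 89.9, 73.9 and 111 CPM at ZT12 and 103, 80.2 and 98.9 CPM at ZT16 (most abundant *Clec4g*, 25.1 and 29.1 CPM on average), and the 7 stellate and fibroblast markers summed to 127, 120.2, 106 and 174 CPM at ZT12 and 164, 118 and 144 CPM at ZT16 (most abundant *Dcn*, 69.3 and 74.9 CPM on average). In these 4 lists edgeR called 0 of 28 tested members, with 0 at an unadjusted p under 0.05 and 0 by DESeq2. The 5 cholangiocyte markers summed to 31.6, 35.7, 27.2 and 49.6 CPM at ZT12 and 42.4, 34.3 and 28.6 CPM at ZT16 (most abundant *Spp1*, 32.4 and 28.6 CPM on average), and of the 3 tested *Sox9* alone rose, chosen after its values were seen (log2 1.07 ± 0.25, adjusted p 0.0331, but 0.0626 to 0.123 without ZT12 replicate 1, 2 or 3 or ZT16 replicate 1, 2 or 3). The 6 erythrocyte markers summed to 464, 622, 867 and 709 CPM at ZT12 and 686, 498 and 575 CPM at ZT16 (most abundant *Hbb-bs*, 229 and 183 CPM on average). The globin genes are near copies, so their split is uncertain. The 6 adipocyte markers summed to 5.75, 6.58, 38.2 and 10.8 CPM at ZT12 and 9.79, 5.602 and 6.55 CPM at ZT16 (most abundant *Cfd*, 11.8 and 3.59 CPM on average), with ZT12 replicate 3 above the rest and *Lep*, *Plin1* and *Retn* at 0 counts in all 7 libraries. No erythrocyte member (5 tested) or adipocyte member (2 tested) was called, with 0 at an unadjusted p under 0.05 and 0 by DESeq2. The 5 neutrophil markers summed to 0.719, 1.70, 1.35 and 0.872 CPM at ZT12 and 1.02, 1.28 and 0.868 CPM at ZT16 (most abundant *Csf3r*, 0.644 and 0.798 CPM on average), with *Ly6g* at 0 counts and 1 tested and not called by either tool or at an unadjusted p under 0.05. The 6 lymphocyte markers summed to 0.785, 0.731, 0.953 and 1.21 CPM at ZT12 and 0.544, 0.48 and 0.316 CPM at ZT16 (most abundant *Cd79a*, 0.431 and 0.17 CPM on average), and the 8 markers of exocrine pancreas summed to 0.392, 0.365, 1.03 and 0.469 CPM at ZT12 and 0.748, 0.56 and 0.631 CPM at ZT16 (most abundant *Cela2a*, 0.525 and 0.276 CPM on average), with *Ctrb1* and *Prss2* at 0 counts. No member of those 2 lists was tested, because of low counts.

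WT livers, whose hepatocytes keep GR, were compared over the same step and share no library with the GR LKO livers. Of 11452 genes tested, 1540 (13.4%) were called, with 1905 by DESeq2. The count was 1024 without WT ZT16 replicate 1, 967 without replicate 3 and 875 without replicate 4 of that group. Of the 1047 genes called in GR LKO and tested in WT, 1015 (96.9%) had the same direction, beside 71.9% of all genes tested in both. In both genotypes 615 were called, 57.7% of the GR LKO calls and 39.9% of the WT calls, and 0 in opposite directions. In WT the heat shock list had 16 rise and 1 fall (median 0.85), and of the unfolded protein response 16 rose and 0 fell (median 0.49). Of the cell markers, 4 endothelial (median 0.48, GR LKO 0.12), 4 stellate and fibroblast (0.92, GR LKO 0.42) and 1 cholangiocyte marker rose in WT. The test of the difference between genotypes, given next, called 0 of these markers. Of the clock output genes 2 rose and 7 fell (median -0.50), and of the GR targets 1 rose and 7 fell (median -0.52). WT log2 fold changes were 4.07 for *Arntl*, -1.77 for *Nr1d1*, 1.804 for *Hsp90aa1* and 1.82 for *Creld2*. The difference between genotypes in the step was tested with an interaction term over 15 libraries. edgeR called 0 of 12122 genes (0%), with 741 at an unadjusted p under 0.05 and 21 by DESeq2. Among the 21 were *Gadd45g* (5.22, adjusted p 0.00433), a stress-response gene chosen after its values were seen, *Btg2* (1.59, adjusted p 0.00606) and *Hsph1* (1.27, adjusted p 0.048), with edgeR adjusted p 0.365, 0.365 and 0.635. Leaving out WT ZT12 replicate 1 gave 1 gene by edgeR, *Gadd45g*, with an interaction of 5.62 on the log2 scale and an adjusted p of 0.0356. Over all libraries, *Gadd45g* means were 70.5 CPM at ZT12 and 4.25 at ZT16 in WT, and 8.45 and 19.0 in GR LKO. Genotype differences for *Tsc22d3* (0.28, adjusted p 0.883), *Fkbp5* (0.26, 0.904) and *Creld2* (1.03, 0.778) were not called, which does not show that the genotypes act alike.

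In GR LKO livers on caloric restriction, 4516 of 11943 genes (37.8%) were called over the same step, with 4293 by DESeq2 and 3303 to 3886 without 1 of the 6 libraries. Of the 1053 genes called on the control diet and tested there, 985 (93.5%) had the same direction, beside 67.9% of all genes. Called on both diets in the same direction were 838, 78.7% of the control-diet calls and 18.6% of the others, and 16 were called in opposite directions. The difference between diets in the step was tested with an interaction term. A separate diet term takes up a constant shift between the separately numbered libraries of each diet. A shift that differs between the times would enter the interaction. The difference was called for 1161 of 12357 genes (9.4%), with 3195 at an unadjusted p under 0.05 and 1695 by DESeq2. The log2 change was higher on the control diet for 486 and lower for 675 by edgeR, and 851 and 844 by DESeq2, so the balance depends on the tool. That count was 713 without control ZT16 replicate 1, 670 without replicate 2 of that group, 610 without restricted ZT12 replicate 3, and 732 and 750 without restricted ZT16 replicates 2 and 3. *Nr1d1* fell less on the control diet (-2.32) than under restriction (-4.37, interaction 2.04, adjusted p 0.0102), as did *Dbp* (-2.23 and -4.87, interaction 2.64, adjusted p 0.00831) and *Tef* (-0.84 and -1.58, interaction 0.73, adjusted p 0.00805). Mean *Dbp* was 19.0 CPM at ZT12 and 0.637 CPM at ZT16 under restriction. *Tat* (0.68 and -1.03, interaction 1.71, adjusted p 0.00537) and *Ddit4* (1.27 and -0.39, interaction 1.65, adjusted p 0.00542) had log2 values of opposite sign on the diets, though edgeR did not call *Tat* on the control diet (adjusted p 0.0663). *Trib3* fell more on the control diet (-2.34 and -0.72, interaction -1.62, adjusted p 0.00369). These calls held without any 1 of the 13 libraries. *Ddx46*, an RNA helicase gene, read 55.8, 50.5, 45.1 and 52.7 CPM at ZT12 and 37.4, 39.8 and 34.1 CPM at ZT16 on the control diet (log2 -0.46 ± 0.09, adjusted p 0.0233), while under restriction all ZT16 libraries were at 0 counts, at least 232-fold lower than the 41.7 CPM at ZT12 (against 3 counts per library). *Hook2*, a dynein adaptor gene, read 47.8, 39.2, 37.2 and 41.4 CPM at ZT12 and 10.8, 13.2 and 17.2 CPM at ZT16 (log2 -1.59 ± 0.16, adjusted p 0.00267) and was at 0 counts there too, at least 150-fold lower than 27.1 CPM. The counts are estimates, so both bounds describe the reads assigned to each gene, and what the exact 0 stands for was not tested. *mt-Nd3*, of the mitochondrial genome, averaged 934 CPM at ZT12 and 1049.6 CPM at ZT16 on the control diet (standard deviations among libraries 48.2 and 93.5 CPM). Under restriction it averaged 865 and 202 CPM (interaction 2.26, adjusted p 7.2e-05). *Plk3*, a stress kinase gene (2.92, adjusted p 0.00043), *Zfand4* (1.84, adjusted p 0.00104), *Aen*, a nuclease gene (-1.57, adjusted p 0.00043), *Irgm1*, a GTPase gene (-1.52, adjusted p 0.00043), *Nek6*, a mitotic kinase gene (-1.40, adjusted p 0.00043), *Nt5e*, the ecto-nucleotidase CD73 (-2.32, adjusted p 0.00104), and *Ssb*, the La protein (-0.76, adjusted p 0.00104), complete the 10 genes that the naming rule takes from the lowest p.

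Other GR LKO mice on the control diet, at ZT8 and ZT20, bracket the step and share no library with it. ZT20 against ZT8 gave 1864 calls among 11863 genes (15.7%), 2086 by DESeq2, with 1092, 1040 and 1240 calls without ZT8 replicate 1, 2 or 4 and 1123 without ZT20 replicate 2. Of the 1053 genes called between ZT12 and ZT16 and tested there, 1029 (97.7%) had the same direction, beside 72.6% of all genes. Called in both were 686, 64.4% of the first and 36.8% of the second, and 0 in opposite directions. *Irs2* was -2.20 between ZT12 and ZT16 and 0.08 between ZT8 and ZT20, and *Pck1* -1.70 and -0.37. *Arntl* (3.95), *Nr1d1* (-5.98), *Rgs16* (-6.66), *Hsp90aa1* (1.798) and *Creld2* (1.19) kept the direction of the step in these mice. Mean *Creld2* over the day was 19.9, 24.2, 13.9, 21.5, 156 and 31.8 CPM from ZT0 to ZT20, highest at ZT16. Mean *Hsp90aa1* was 194, 149.7, 82.7, 99.3, 464 and 286 CPM in that order, also highest at ZT16.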

How the data were processed

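Liver RNA of 7 GR LKO mice (control diet, ZT12 and ZT16) was read as gene-level estimated counts deposited by the authors, who ran FastQC 0.11.9, MultiQC 1.12, Salmon 1.8.0 and tximport 1.18.0, with build mm10 in their processing notes. The labels name TruSeq RNA v2 kits and no strand. Counts were rounded and tested in R 4.3.3 with edgeR 4.0.16: TMM scaling, filterByExpr at 10 counts, quasi-likelihood F tests, and Benjamini-Hochberg adjustment at 0.05. CPM used 1 TMM scaling per diet table, with a prior count of 2 for log2 CPM. Of 27654 gene IDs, 27244 had a symbol, and the other 410 held 0.119% of counts. The step was also tested in WT, under caloric restriction, between ZT8 and ZT20, and as differences between genotypes and diets. Named genes were, by rule, the 12 largest rises and 12 largest falls (called, at least 5 CPM, no overlap), up to 5 called members per list with the lowest p, every member of the core clock, clock output and GR target lists, up to 10 genes per interaction, *Nr3c1* and cell markers. The 25 pathway and 10 marker lists came from textbook biology, and members and lists were chosen with earlier results of these data known. Alternatives were DESeq2 1.42.0, RLE, no or a strict filter, a replicate block, other sets of libraries, and each library left out. Some genes that the rule or the lists name are not reported here and were left out of the list counts without replacement. The 3 other files were not analysed here.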

Additional observations from a re-analysis of the deposited data

Results flagged for a closer look

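Of 132 groups of 4 ZT12 values, 14 held 1 library whose gap to its nearest neighbour over the group's range exceeded Dixon's critical value. Chance alone gives about 1 in 20 such groups for independent values, and the groups here share their libraries. That rate does not apply to *Arntl*, *Ikzf4* and *Clock*, where 3 libraries were 0. Among the 14 were *Arntl* 0.635 CPM in replicate 3 (others 0), *Ikzf4* 0.974 CPM in replicate 2 (others 0), *Irs2* 38.9 CPM in replicate 1 (others 14.0 to 18.2), *Per1* 48.8 CPM in replicate 1 (others 28.6 to 31.2), *Clock* 2.13 CPM in replicate 2 (others 0), *Csnk1d* 61.4 CPM in replicate 4 (others 58.0 to 58.5) and *Noct* 217 CPM in replicate 1 (others 149.8 to 155). The others were *Klf15* 87.9 CPM in replicate 1 (others 74.2 to 74.9), *Dusp1* 33.9 CPM in replicate 1 (others 9.44 to 11.3), *Fkbp4* 147 CPM in replicate 2 (others 129 to 129.9), *Ppp1r3g* 6.03 CPM in replicate 3 (others 3.35 to 3.66), *Sesn2* 12.6 CPM in replicate 1 (others 7.78 to 8.45), *Mybbp1a* 59.1 CPM in replicate 4 (others 52.1 to 53.2) and *Ifi47* 8.83 CPM in replicate 1 (others 11.3 to 11.7). *Ifi47* had its far library below the rest, and in the others it was above them. Replicate 1 was the far library in 7 of the 14. All 14 are values of single genes, and summed levels of lists are not among them. Replicate 1 also stood apart in the ZT12 sums of clock output (1775 CPM, others 1601 to 1615) and GR targets (7667 CPM, others 4959 to 5338).

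In the test of the difference between diets, 32 of 126 named genes were called, beside 1161 of 12357 tested genes (9.4%), and 10 of the 126 had been named for the lowest p in this test. Many of the others were named for their change in the same control-diet libraries, so these shares are not on an equal footing. Here a positive value is a higher log2 change from ZT12 to ZT16 on the control diet than under caloric restriction in GR LKO livers. The 10 taken for the lowest p were *Ddx46* 11.86, *Hook2* 10.10, *mt-Nd3* 2.26, *Aen* -1.57, *Plk3* 2.92, *Irgm1* -1.52, *Nek6* -1.40, *Nt5e* -2.32, *Zfand4* 1.84 and *Ssb* -0.76. The values of *Ddx46* and *Hook2* are fitted ones that rest on 0 counts in all restricted ZT16 libraries, so their size is not known. Among the other genes, the positive differences were *Nr1d1* 2.04, *Dbp* 2.64, *Depp1* 2.28, *Pck1* 1.54, *Nr1d2* 1.70, *Rora* 0.65, *Tef* 0.73, *Por* 0.96, *Ddit4* 1.65, *Tat* 1.71, *Zbtb16* 1.32, *Tdo2* 0.63, *Foxo4* 0.54, *Abcg8* 1.16, *Ulk1* 0.70, *Id3* 1.20 and *Nr3c1* 0.62. The negative differences were *Trib3* -1.62, *Calr* -0.54, *Bysl* -0.80, *Rrp12* -1.01 and *Ifi47* -1.40. Without 1 library, 12 of these genes were not called, and their adjusted p was *Depp1* 0.0639 to 0.105 without control ZT12 replicate 4 or control ZT16 replicate 1 or 2 or restricted ZT12 replicate 2 or 3 or restricted ZT16 replicate 1 or 2, *Pck1* 0.0593 to 0.0966 without control ZT12 replicate 2, 3 or 4 or control ZT16 replicate 1 or 2 or restricted ZT12 replicate 1, 2 or 3 or restricted ZT16 replicate 1 or 2, *Rora* 0.0539 to 0.0605 without control ZT16 replicate 1 or restricted ZT12 replicate 3 or restricted ZT16 replicate 2 and *Zbtb16* 0.0508 to 0.0966 without control ZT12 replicate 1, 3 or 4 or control ZT16 replicate 1 or 2 or restricted ZT12 replicate 1 or 3 or restricted ZT16 replicate 2 or 3. For the next it was *Tdo2* 0.0512 to 0.0653 without control ZT16 replicate 2 or restricted ZT12 replicate 3 or restricted ZT16 replicate 1 or 2, *Calr* 0.0516 to 0.0612 without control ZT16 replicate 1 or restricted ZT12 replicate 2 or restricted ZT16 replicate 2, *Abcg8* 0.0507 to 0.063 without control ZT16 replicate 2 or restricted ZT12 replicate 1 or 2 or restricted ZT16 replicate 2 and *Bysl* 0.0501 to 0.0939 without control ZT12 replicate 1, 2 or 4 or control ZT16 replicate 1 or 2 or restricted ZT12 replicate 1, 2 or 3 or restricted ZT16 replicate 2 or 3. For the last it was *Rrp12* 0.0517 to 0.114 without control ZT12 replicate 1, 2, 3 or 4 or control ZT16 replicate 1, 2 or 3 or restricted ZT12 replicate 1, 2 or 3 or restricted ZT16 replicate 2, *Ulk1* 0.0553 to 0.0896 without control ZT12 replicate 1, 2 or 4 or control ZT16 replicate 1 or 2 or restricted ZT12 replicate 1 or 3 or restricted ZT16 replicate 2 or 3, *Id3* 0.057 to 0.0922 without control ZT12 replicate 1, 2, 3 or 4 or control ZT16 replicate 2 or restricted ZT12 replicate 2 or 3 or restricted ZT16 replicate 1 or 3 and *Nr3c1* 0.0519 to 0.0551 without control ZT16 replicate 3 or restricted ZT16 replicate 1.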

How the results depend on the processing

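The count of 1065 genes stayed within 1.5 times under DESeq2 (1397), RLE scaling (1076), no filter on low counts (939), a strict filter at 50 counts (1082) and the fit of all 20 GR LKO control-diet libraries (1543). The planned fit of replicates 1 to 3 only (737) is the fit without ZT12 replicate 4, as ZT16 has 3 libraries, and counts here as leaving out a library. With a replicate block it was 16, of which 15 were among the 1065. The block spends residual degrees of freedom, and the cause of the drop was not tested. Deviations from each time's mean log2 CPM were correlated between ZT12 and ZT16 libraries. Equally numbered replicates gave 0.0133, 0.114 and -0.109, and differently numbered ones -0.214 to 0.112. Leaving out 1 library gave 379 to 980 genes, in fits with fewer libraries. For WT the range was 875 to 1384, for caloric restriction 3303 to 3886, and for ZT20 against ZT8 1040 to 1842. The genotype difference gave 21 genes with DESeq2 against 0 with edgeR, and 0 to 1 without 1 library; the cause was not tested. The diet difference gave 297 genes with the replicate block against 1161, and 610 to 1006 without 1 library. For its 32 called named genes, settings other than leaving out a library kept 142 calls and ended 18 (genes by setting).

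The share of called genes with the same direction in WT was 95.5% with DESeq2, 95.6% with the fit of all 20 libraries and 100% with the replicate block, and in ZT20 against ZT8 it was 96.3% with DESeq2 and 100% with the replicate block. The cause was not tested. Without 1 library these shares were 96% to 97.5% in WT, 93.6% to 94.6% under restriction and 96.9% to 98.6% in ZT20 against ZT8.

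Of 116 genes named by the rule, 87 were called. Of these, 37 were called in each fit but that with the replicate block, which called 8 of the 87. In settings other than leaving out a library, 15 lost the call in at least 1, with the replicate block set aside, and 47 lost it in at least 1 fit without a library. Of the uncalled genes, 8 gained a call in at least 1 fit, and 0 of the 87 called genes reversed direction. Log2 changes of 7 uncalled genes changed sign in at least 1 fit: *Dusp1*, *Errfi1*, *Fbxl21*, *Fbxw11*, *Klf10*, *Nampt* and *Rora*. Of the list counts, 74 of 396 (lists by direction and setting) moved by more than 1.5 times in settings other than leaving out a library, and 121 of 462 without 1 library. DESeq2 gave 2 fallers against 1 in the lists of amino acid catabolism, ribosome biogenesis and immediate early genes. In xenobiotic metabolism it gave 2 risers against 1.

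The called genes that lost the call, with their adjusted p, were as follows. With DESeq2 they were *Ikzf4* 0.11, *Bcl9l* 0.206 and *Derl3* 0.0556. Without a filter on low counts it was *Lbp*, at an adjusted p just above 0.05. With the fit of all 20 libraries they were *Derl3* 0.108, *Hsph1* 0.0612, *Per2* 0.197, *Per3* 0.109, *Wee1* 0.0587, *Ppp1r3g* 0.0993, *Got1* 0.124, *Gnl3* 0.0668, *Nr1i3* 0.0512, *Btg2* 0.0814, *Id3* 0.183, *Lbp* 0.0554 and *Ifi47* 0.114. Without ZT12 replicate 4 they were *Pnpla3* 0.0673, *Chrna4* 0.0842, *Depp1* 0.0635, *Cry2* 0.0678, *Wee1* 0.0813, *Nfil3* 0.0965, *Slc2a2* 0.0698, *Pdk2* 0.0808, *Acot1* 0.0636, *Abcc2* 0.069, *Got1* 0.0669, *Stbd1* 0.0656, *Slc38a2* 0.0564, *Bysl* 0.0677, *Wipi1* 0.0518, *Fmo5* 0.0672, *Id3* 0.0751, *Mcm4* 0.072, *Stat2* 0.0753 and *Ifi47* 0.0654. RLE scaling and the strict filter changed no call of the named genes they tested. Uncalled genes that gained a call were *E2f8* 0.0201, *Tspan4* 0.0465, *Tat* 0.00476, *Mt1* 0.00683, *Angptl4* 0.0137 and *G6pc* 0.0359 with DESeq2, *Tspan4* 0.0272 and *Mt1* 0.0229 with the fit of all 20 libraries and *Angptl4* 0.0186 without ZT12 replicate 4.

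RLE scaling and both filters for the WT, restricted and ZT20 against ZT8 comparisons, with their left-out libraries, were chosen after seeing the data. With 3 to 4 mice a time and 12974408 to 16066590 counts a library, genes near the filter carry wide errors. Genes at 0 counts in several libraries, such as *Arntl*, *Clock* and *Ikzf4* at ZT12, have fold changes that depend on the prior count. A gene that was not called is not thereby shown to be alike at both times.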
